A study of Homo sapiens with 12 samples.

Results

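The genes described here encode the nuclear part of the mitochondrial respiratory chain and ATP synthase. They were taken from RefSeq (GRCh38.p14) by symbol: autosomal protein-coding genes whose symbol starts with NDUFA, NDUFB, NDUFC, NDUFS, NDUFV, UQCR, SDHA to SDHD, COX4 to COX8, ATP5F1, ATP5M or ATP5P. There were 96 such genes among 19126 autosomal protein-coding genes, including 12 assembly factors and 2 readthrough genes whose symbols fall under the same prefixes. A further 3 genes with such symbols lie on chromosome X and were not members.

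Chromatin accessibility was measured by ATAC-seq, in which a transposase cuts and tags open DNA, in HT1080 cells, an established human fibrosarcoma line. The cells had spent 48 h in gels of rat tail type I collagen at 0.3 mg/mL (low), 1.0 mg/mL (medium) or 1.7 mg/mL (high), with 4 libraries at each concentration and 12 in all. All 3 groups, the low concentration included, received the broad matrix metalloproteinase inhibitor GM6001 at 20 µM, so none of them is free of the drug. The list of accessible sites analysed here was a single one for the series, with 188019 lines and no value for any library or concentration. Nothing below is therefore a comparison between collagen concentrations, there are no replicates, and the depth of each library is unknown. The genes VIM, FN1, COL6A1, COL6A2, S100A4, CD44 and NT5E were used as 7 markers of a mesenchymal line. All but NT5E had an accessible site at an end, as did 66.6% of all autosomal protein-coding genes. Their enrichments ran from 6.64 to 15.1. Only FN1 was above the median of 11.7 over coding genes with a site, and VIM and S100A4 were below the lower quartile of 6.74. The markers were thus not high among coding genes.

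Electrons from NADH enter the chain at complex I and those from succinate at complex II. They pass by ubiquinone to complex III and by cytochrome c to complex IV, cytochrome c oxidase, which reduces oxygen, and complex V, the ATP synthase, uses the resulting proton gradient to make ATP. A few core subunits are encoded by mitochondrial DNA and all others by nuclear genes, most of which are active in nearly every cell. Several subunits of complex IV come in alternative versions from separate genes, one found in most tissues and another found mainly in heart and skeletal muscle, lung or testis. The transcription factors NRF-1 and GABP, an ETS factor, and YY1 are well known for acting at promoters of the ubiquitous genes.

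A summit is the position of highest signal within an accessible interval. Its enrichment is the authors' deposited fold over the local background, and its pileup is the number of overlapping fragments recovered from that enrichment and the p-value of the line. A summit counted for a gene when it lay within 1000 bp of either end of the gene. By that rule 83 of the 96 respiratory chain genes (86.5%) had a summit, against 66.6% of all autosomal protein-coding genes. With an enrichment of at least 10 required, 68 of 96 (70.8%) had one, against 40.1% of all. The 83 genes drew on 91 distinct summits, because 74 genes had 1 and 9 had 2 or more, and each readthrough gene shares the end and the summit of its parent.

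The highest enrichment per gene had a median of 13.3 over the 83 genes, with quartiles of 11.3 and 15.7. Over the 12731 coding genes with a summit the median was 11.7, with quartiles of 6.74 and 14.7. The median pileup was 878 fragments for the respiratory chain genes and 753 for all coding genes. Below the lower quartile of all coding genes lay 3 of the 83 (COX6A2, COX6B2 and NDUFS6), and above the upper quartile 29. These medians cover only genes that had a summit.

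**Figure D1:**
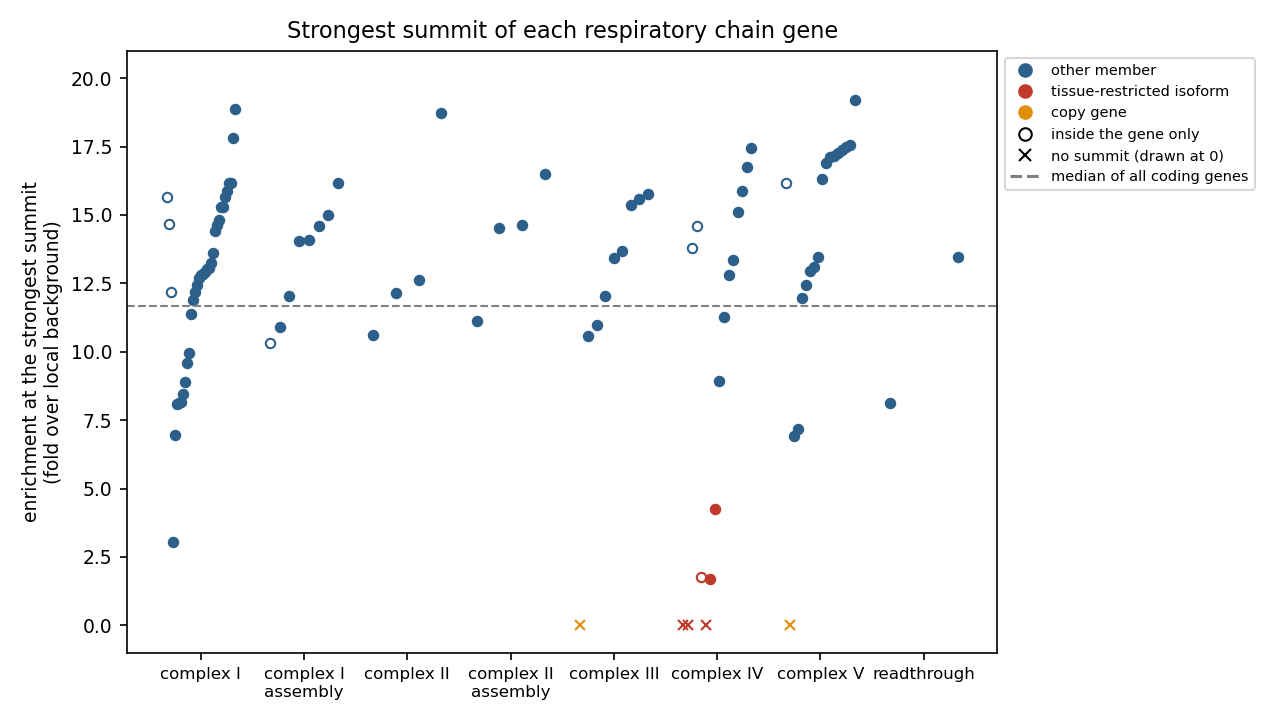
Enrichment (fold over local background, vertical axis) at the strongest summit near an end of each of the 96 genes, grouped by complex; each point is 1 gene. Open points are the strongest summit inside genes with none near an end, crosses are genes with no summit, drawn at 0, and the dashed line is the median of 11.7 over coding genes with a summit. Every cross is a tissue-restricted isoform (red) or a copy gene (orange), and complex V holds the highest point, at 19.2.

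Ubiquitous isoforms of complex IV subunits were set beside their tissue-restricted partners. Of the 5 ubiquitous complex IV isoforms among the members, 4 had a summit near an end, with enrichments from 11.3 to 15.9, and the fifth, COX7A2, had one of 13.8 inside the gene. Of the 6 tissue-restricted isoforms, 2 had a summit near an end, with enrichments of 1.69 and 4.25. By the same rule 66.6% of all autosomal protein-coding genes had one. The classes are small and genes are not replicates, so each gene is given by its own values and no test was made.

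COX4I1 encodes the common form of subunit 4, which lies in the regulatory part of cytochrome c oxidase, and spans 85799695 to 85807068 on chromosome 16. Its summit, 83 bp before the gene's start, reached 13.3-fold enrichment, with 888 fragments over a background of 65.7. An end of EMC8 lay within 1000 bp of the same summit. COX4I2, the form known from lung, spans 31637912 to 31645006 on chromosome 20 and had 0 summits in or near it. The nearest summit lay 5678 bp away and had an enrichment of 1.80. The list thus had a strong line at the common gene's start and no line at COX4I2.

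Subunit 6A has a common form, COX6A1, and a heart and skeletal muscle form, COX6A2. COX6A1 (chromosome 12, 120438113 to 120440730) reached 12.8-fold enrichment with 904 fragments, with its summit 87 bp before the start. COX6A2 (chromosome 16, 31427731 to 31428360) had 1 weak summit, of 1.69-fold enrichment with 35 fragments, the lowest pileup of any line in the list, at a −log10 q of 1.51. That summit lay 104 bp beyond the far end of the gene and 732 bp downstream of its start, so the start itself carried none.

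Subunit 6B, which faces the intermembrane space, has the common COX6B1 and the testis form COX6B2, both on chromosome 19. COX6B1 (35648323 to 35658782) reached 11.3-fold enrichment with 1027 fragments, 91 bp before its start, and a weaker summit of 6.22 near its other end. COX6B2 (55349704 to 55354719) reached 4.25-fold enrichment with 172 fragments, in a summit 659 bp inside the gene from its start. An end of GARIN5B lay within 1000 bp of that summit too, so the site cannot be assigned to COX6B2 alone.

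COX7A2 and COX7A1 encode the common form and the heart and muscle form of subunit 7A. COX7A2 (chromosome 6, 75237675 to 75250298) had no summit at its outermost ends. Its strongest summit, at 13.8-fold and 723 fragments, lay 6160 bp inside the gene and 35 bp before a second RefSeq start at 75243801. COX7A1 (chromosome 19, 36150922 to 36152447) had 0 summits, the nearest being 9656 bp away with an enrichment of 3.60.

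The remaining pairs followed the same order. COX8A, the common form of the small subunit 8, spans 63974620 to 63976543 on chromosome 11 and reached 15.9-fold enrichment with 1808 fragments, the highest of the ubiquitous isoforms. COX8C, the testis form, spans 93347182 to 93348356 on chromosome 14 and had 0 summits. The nearest lay 14052 bp away and was strong, with an enrichment of 15.9. For subunit 7B the common gene, COX7B, is X-linked and no member; its enrichment was 5.57 with a pileup of 309, the lowest of the common forms. COX7B2, the testis form (chromosome 4, 46734827 to 46909245), had none at its ends and a single summit deep inside the gene, at 1.78-fold and 37 fragments.

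**Figure D2:**
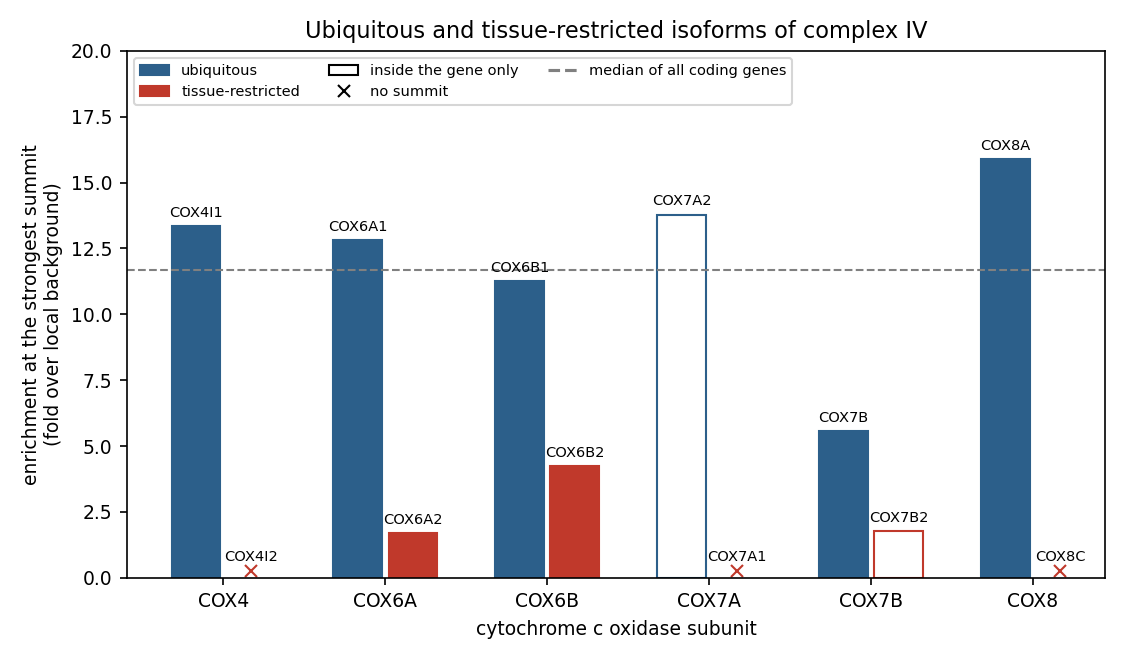
Enrichment (fold over local background, vertical axis) at the strongest summit of each ubiquitous (blue) and tissue-restricted (red) isoform of 6 complex IV subunits. Filled bars are summits within 1000 bp of a gene end, open bars summits inside the gene only, and crosses genes without a summit; the ubiquitous bars run from 5.57 to 15.9 and the tissue-restricted ones reach 4.25.

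The DNA before these starts is shown for the isoforms so that starts with and without a summit can be compared. The absence of a summit means that none was called there, not that the chromatin was closed. Each stretch is the 200 bases before a RefSeq start, 5′ to 3′ on the gene's strand, from GRCh38.p14. Capitals mark matches, on either strand, to the NRF-1 core GCATGCGC or the longer NRF-1 consensus with its central base left free, the ETS core CGGAAG, the YY1 motifs AAGATGGC and ATGGCGG, or the CCAAT box. COX6A1, COX6B1, COX7A2 and COX8A had a summit near these starts, and COX6A2 and COX7B2 had no summit at the start.
COX6A1 (chr12:120437913-120438112, plus strand): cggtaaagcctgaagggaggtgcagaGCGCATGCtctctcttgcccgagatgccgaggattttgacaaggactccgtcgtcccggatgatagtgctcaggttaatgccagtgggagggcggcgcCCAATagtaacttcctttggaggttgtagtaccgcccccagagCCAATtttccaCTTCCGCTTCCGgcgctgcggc
COX6B1 (chr19:35648123-35648322, plus strand): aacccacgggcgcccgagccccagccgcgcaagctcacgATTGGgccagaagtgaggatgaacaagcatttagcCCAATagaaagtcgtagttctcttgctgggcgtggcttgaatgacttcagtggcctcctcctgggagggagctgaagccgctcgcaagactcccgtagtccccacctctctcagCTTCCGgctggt
COX7A2, inner start (chr6:75243802-75244001, minus strand): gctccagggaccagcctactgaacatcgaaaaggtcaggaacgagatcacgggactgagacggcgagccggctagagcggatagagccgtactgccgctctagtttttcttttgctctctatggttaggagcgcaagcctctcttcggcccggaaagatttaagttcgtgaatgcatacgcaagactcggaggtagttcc
COX8A (chr11:63974420-63974619, plus strand): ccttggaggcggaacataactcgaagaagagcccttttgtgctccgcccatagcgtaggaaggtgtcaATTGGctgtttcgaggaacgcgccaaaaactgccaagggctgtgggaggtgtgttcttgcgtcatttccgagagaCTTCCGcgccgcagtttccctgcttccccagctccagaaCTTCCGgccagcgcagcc
COX6A2 (chr16:31428361-31428560, minus strand): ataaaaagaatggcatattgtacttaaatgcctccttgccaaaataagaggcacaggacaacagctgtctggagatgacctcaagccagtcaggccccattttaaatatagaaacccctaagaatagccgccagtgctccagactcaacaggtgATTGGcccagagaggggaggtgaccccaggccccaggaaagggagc
COX7B2 (chr4:46909246-46909445, minus strand): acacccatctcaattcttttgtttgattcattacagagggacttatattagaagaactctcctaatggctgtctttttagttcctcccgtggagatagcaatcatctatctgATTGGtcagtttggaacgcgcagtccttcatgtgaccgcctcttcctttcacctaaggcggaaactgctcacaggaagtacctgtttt

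The 4 stretches with a summit held 12 to 15 CpG dinucleotides each, the COX6A2 stretch 1 and the COX7B2 stretch 5. GC content was 54% to 60% in these 4, 50% for COX6A2 and 43.5% for COX7B2. COX6A1, COX6B1 and COX8A each had the ETS core on the opposite strand within 22 bases of the start, and COX6A1 and COX8A had it 2 times. The NRF-1 core was found only in COX6A1, among the 6 stretches, 174 to 167 bases before the start. COX6A2 and COX7B2 held a CCAAT box each and no other of the motifs, and COX7A2, with a summit, held none of them. The tissue-restricted isoforms with a listed start whose stretches are not printed differed from this: in the window from 250 bases before to 50 after the start, COX6B2 had 72% GC and 31 CpG dinucleotides with neither an NRF-1 nor an ETS match. In that window COX8C, with 0 summits, had 64.3% GC and 10 CpG dinucleotides and held both the ETS core and the longer NRF-1 consensus. Low GC content and missing motifs were thus not shared by all the tissue-restricted isoforms. These are matches of letters and not measured binding.

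Other near-copies behaved in a similar way. UQCRHL, an intronless copy of the complex III hinge gene UQCRH, had 0 summits, while UQCRH reached 11.0-fold enrichment with 1279 fragments. ATP5MGL, a copy of the ATP synthase subunit g gene ATP5MG, had 0 summits, and ATP5MG had 6.93 with a pileup of 218. In contrast the 3 genes for the c subunit that forms the rotating ring of ATP synthase all had a strong summit: ATP5MC1 had 17.3 with a pileup of 3588, ATP5MC3 11.96 with 364, and ATP5MC2 16.2 with 1373, the last at an inner start only. The mature protein is the same from all 3 genes, while the pileups at their summits ranged widely.

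Of the 13 genes without a summit near an end, 6 were tissue-restricted isoforms or copies (COX4I2, COX7A1, COX7B2, COX8C, UQCRHL and ATP5MGL). The other 7 were ubiquitous genes. Each of these 7 had a strong summit inside the gene, with an enrichment between 10.3 and 16.2 and a pileup between 723 and 3249. RefSeq lists starts for 6 of them (NDUFA5, NDUFC1, NDUFAF3, COX7A2, COX7A2L and ATP5MC2), and in these 6 the summit lay 35 to 265 bp from a listed start, an inner one downstream of the outermost end. In these 6 genes the accessible start was thus an inner one, away from the outermost ends that the rule used.

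NDUFA5, an accessory subunit of complex I, shows this most plainly. Its gene extends from 123536997 to 123601651 on chromosome 7, and its summit at 123557916, at 15.7-fold and 1001 fragments, lay 20918 bp from the nearer end but 98 bp before an inner start. COX7A2L, which helps join complexes III and IV into supercomplexes, had an enrichment of 14.6 at a summit 7476 bp inside the gene and 265 bp before an inner start. NDUFC1 and NDUFAF3 were just outside the window, at 1157 and 1310 bp from an end, with enrichments of 14.7 and 10.3. The farthest summits just inside it were one of NDUFS7 at 971 bp, with an enrichment of 1.93, and the strongest of NDUFA11 at 780 bp, with 12.4.

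When summits anywhere in the gene or within 1000 bp of it were counted, an alternative added after seeing the data, 91 of 96 genes (94.8%) had one, against 83.7% of all coding genes. With an enrichment of at least 10, 75 of 96 (78.1%) had one, against 51.5% of all. All 88 genes outside the tissue-restricted and copy genes had a summit by this measure, with a lowest value of 3.05 and a median of 13.6. None of the 8 tissue-restricted or copy genes, the copies being UQCRHL and ATP5MGL, exceeded 4.25. COX7A2L and the 3 c subunit genes, which are paralogues too, were counted among the 88, with values from 11.96 to 17.3. For copies the split therefore depends on which genes were placed in the class. Measured from listed starts alone, 76 of 78 genes (97.4%) had a summit within 1000 bp, against 68.5% of all coding genes with a listed start. The 2 without one were COX7B2 and COX8C. COX4I2, COX7A1, UQCRHL and ATP5MGL, which had no summit at all, have no listed start and are not among the 78. COX6A2 is counted among the 76 through its weak summit of 1.69, 732 bp downstream of the start.

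Complex I had 35 members besides its assembly factors, of which 32 had a summit near an end, with a median enrichment of 12.9. The 3 genes of the NDUFV group, which encode subunits of the NADH-binding module, were all high. NDUFV2, which holds an iron-sulfur cluster, had the highest of the complex, 18.9, from 1979 fragments at a summit in chromosome 18, 9101873 to 9103000. NDUFV1, the flavin-bearing subunit, had 16.2 and NDUFV3 also had 16.2. All 3 stood above the upper quartile of coding genes.

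The 8 NDUFS genes encode core subunits of the peripheral arm with several of the iron-sulfur clusters, and 3 accessory ones. They had a lower median, 11.9, over the 7 with a summit near an end, and none was above that quartile. NDUFS6, a small subunit needed late in assembly, had the lowest enrichment of complex I, 3.05, from 239 fragments over a background of 77.7 (chromosome 5, 1801103 to 1801678). An end of MRPL36, for a mitochondrial ribosomal protein, lies within 1000 bp of that summit too. NDUFS8 had 8.11, yet its pileup was 1337 over a background of 164, well above that of NDUFS6. NDUFS1, the largest subunit of the complex, had the highest of the group, 13.6.

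The accessory subunits filled the range between. The NDUFA genes, with the acyl carrier protein gene NDUFAB1, had a median of 13.3 over 11 of 12 genes, and NDUFA6 had the highest of them, 17.8. For the 10 NDUFB genes, which encode the membrane arm, the median was 12.4, from 6.96 for NDUFB8 to 15.9 for NDUFB4. NDUFC2, with 8.13, shares its summit with the readthrough gene NDUFC2-KCTD14. NDUFA11 had the highest pileup of all 96 genes, 5322 fragments over a background of 427.1, which gave an enrichment of only 12.4; an end of VMAC lies within 1000 bp of that summit.

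The complex I assembly factors NDUFAF1 to NDUFAF8, which help build the complex and are not part of it, had a summit in 7 of 8 cases, with a median of 14.1. The range was narrow, from 10.9 for NDUFAF1 to 16.2 for NDUFAF8. NDUFAF3 was the one without, as described above. The assembly factors thus lay within the range of the subunits they serve.

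Complex II, succinate dehydrogenase, consists of 4 nuclear-encoded subunits, and all 4 genes had a summit near an end. SDHB, the iron-sulfur subunit, reached 18.7-fold enrichment with 1877 fragments (chromosome 1, 17053812 to 17054450). The flavin-bearing SDHA had 12.6 with a pileup of 1676, and the membrane anchors SDHD and SDHC had 12.1 with 608 and 10.6 with 344. SDHB stood above the other 3, which lay close to one another in enrichment. All 4 assembly factors, SDHAF1 to SDHAF4, also had a summit, from 11.1 for SDHAF1 to 16.5 for SDHAF3.

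In complex III, ubiquinol-cytochrome c reductase, 8 of 9 genes had a summit near an end, with a median of 13.6, and UQCRHL was the exception. UQCRFS1, the Rieske iron-sulfur protein, had the highest enrichment, 15.8, and the small subunit UQCR11 the lowest, 10.6. This was the narrowest range among the complexes.

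In complex IV the 16 members included the isoforms above, and 10 had a summit near an end, with a median of 13.1. Among subunits with no partner isoform, COX5A had the highest enrichment, 17.4, with a pileup of 1726, followed by COX5B with 16.8 and COX7C with 15.1. COX6C had the lowest of these, 8.95 with a pileup of 210. The lowest of the complex with a summit was COX6A2.

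Complex V had the highest median of the complexes, 16.6, over 16 of its 18 members, and 9 of the 16 lay above the upper quartile of coding genes. The peripheral stalk genes, which hold the catalytic head still against rotation, had a median of 17.04 over 4 genes. ATP5PO, the stalk's connection to the head, had the highest enrichment of all 96 genes, 19.2, from 1336 fragments (chromosome 21, 33915519 to 33916245). ATP5PF had the lowest of the stalk, 12.95.

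The 5 genes of the catalytic head and central stalk had a median of 16.3. ATP5F1E and ATP5F1B, the latter encoding the catalytic beta subunit, had 17.4 and 17.1 with pileups of 1883 and 2501, whereas ATP5F1A, for its alpha partner, had 12.4 and 527. ATP5F1D, the delta subunit of the central stalk, was lowest with 7.19, although its pileup of 762 exceeded that of ATP5F1A. The membrane part, 7 of 9 genes with a summit, had a median of 13.5, from 6.93 for ATP5MG to 17.5 for ATP5MJ. Subunits of 1 enzyme thus had summits of unequal enrichment, from 7.19 to 17.4 among the 5 genes of the head and central stalk. Their order by pileup differed, as ATP5F1D and ATP5F1A show.

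Of 76 genes with a summit within 1000 bp of a listed start, 66 (86.8%) had it upstream of the start, against 72.2% of 10341 coding genes. The share was 93.2% for cytosolic and 71.0% for mitochondrial ribosomal protein genes with such a summit. With upstream positions negative, the median for the 76 respiratory chain genes was -73 bp, with quartiles of -123.5 and -30 bp. For all coding genes it was -60 bp, with quartiles of -134 and 8 bp. Within 300 bp upstream lay 63 of 76 (82.9%), against 65.2% of coding genes, 91.5% of cytosolic and 68.1% of mitochondrial ribosomal protein genes. The farthest among the 76 were those of NDUFA11, 781 bp upstream, and COX6A2, 732 bp downstream.

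**Figure D3:**
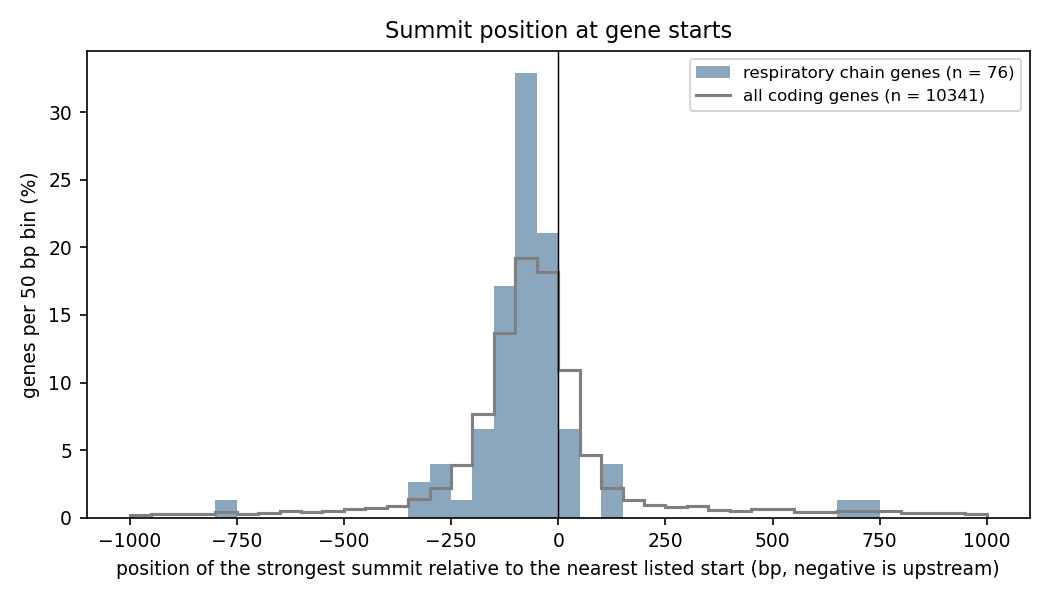
Position of the strongest summit relative to the nearest listed start (horizontal axis, bp, negative is upstream) for 76 respiratory chain genes (blue) and 10341 coding genes (grey line), as a percentage of genes in each 50 bp bin. The blue bars are concentrated just upstream of the start, with a median 73 bp before it, and fewer of them lie downstream than in the grey outline.

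Ends of other genes often lay close to the same summit. Not counting a readthrough gene and its parent, which share an end by definition, the rule gave the following. For 34 of the 83 genes (41.0%) an end of another protein-coding gene lay within 1000 bp of the strongest summit, against 26.1% of coding genes with a summit. Such a site cannot be assigned to either gene alone. The share was 45.95% for mitochondrial and 24.3% for cytosolic ribosomal protein genes with a summit. The 5 shared summits of highest enrichment were those of ATP5MK with PDCD11 (17.5), ATP5F1E with PRELID3B (17.4), ATP5PB with WDR77 (16.9), ATP5F1C with KIN (16.3) and NDUFAF8 with TEPSIN (16.2). By the same count, which leaves in the pairs ATP5MF with ATP5MF-PTCD1 and NDUFC2 with NDUFC2-KCTD14, unshared summits belonged to 49 of the 96 genes (51.0%), against 49.2% of all coding genes, so the share of genes with a summit of their own was near the background.

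Some partners, named after the values were seen, have related functions. ATP5PF shares its summit (chromosome 21, 25734497 to 25735946) with GABPA, which encodes the ETS subunit of GABP; the enrichment was 12.95 and the pileup 1687. NDUFS6 and NDUFB5 share theirs with the mitochondrial ribosomal genes MRPL36 and MRPL47, and SDHD with TIMM8B, for a chaperone of mitochondrial protein import. NDUFA7 shares its site with RPS28, a cytosolic ribosomal gene.

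Promoter sequence was compared through the first start RefSeq lists for each gene, in a window from 250 bases before to 50 after it, for 78 respiratory chain genes and 15101 coding genes. That start was not the accessible one in every gene. For COX7A2 the window compared had 37% GC and 0 CpG dinucleotides, against 54% and 15 in the stretch printed for its inner start. The NRF-1 core GCATGCGC was present, on either strand, in 16 of 78 (20.5%) against 4.19% of coding genes and 5.73% of those with a summit near a listed start. The longer NRF-1 consensus with its central base left free was found in 20 of 78 (25.6%) against 8.64% and 11.8%. The full NRF-1 palindrome, which contains the core and fits that longer form, was found in 5 of 78 (6.41%) against 1.77% and 2.45%. The 5 genes were ATP5F1C, NDUFA8, NDUFAF5, NDUFB4 and SDHD. The 2.45% over coding genes with a summit lay within the exact binomial interval for the 78 genes, 2.11% to 14.3%.

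YY1 motifs were also more frequent here than among coding genes in general. AAGATGGC was found in 11 of 78 (14.1%) against 3.91% of coding genes and 5.37% of those with a summit near a listed start. ATGGCGG, which can overlap it, was found in 21 of 78 (26.9%) against 7.62% and 10.2%. Most of these matches lay beyond the start: AAGATGGC lay within the first 50 transcribed bases in 9 genes (11.5%, against 2.48% of coding genes) and ATGGCGG in 16 (20.5%, against 4.60%). NRF-1 cores showed the opposite placement, with 1 gene having a match after the start.

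The ETS core CGGAAG was present in 32 of 78 (41.0%) against 25.8% of coding genes and 32.9% of those with a summit near a listed start. The longer CCGGAAG, which contains it, was present in 22 (28.2%) against 14.4% and 19.1%. The exact binomial intervals for the 78 genes were 30.0% to 52.75% for the core and 18.6% to 39.5% for the longer motif. For both ETS motifs the share over all coding genes lay below the interval. The share over coding genes with a summit near a listed start lay within it. The SP1 motif GGGCGG had nearly the same share here and over coding genes, 59.0% and 58.9%, and a lower one here within the 100 bases before the start (35.9% against 43.2%) or on the gene's strand alone (24.4% against 40.75%). Its share was 70.1% over coding genes with a summit near a listed start. The CCAAT box was found in 32.1% against 36.0% and 36.8%, and TATAAA in 7.69% against 9.71% and 5.61%, for coding genes and for those with a summit. The median GC content was 61.2% here and 63% over coding genes, with 23 and 22 CpG dinucleotides per window. Over coding genes with a summit near a listed start both medians were higher, at 65.3% and 26.

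**Figure D4:**
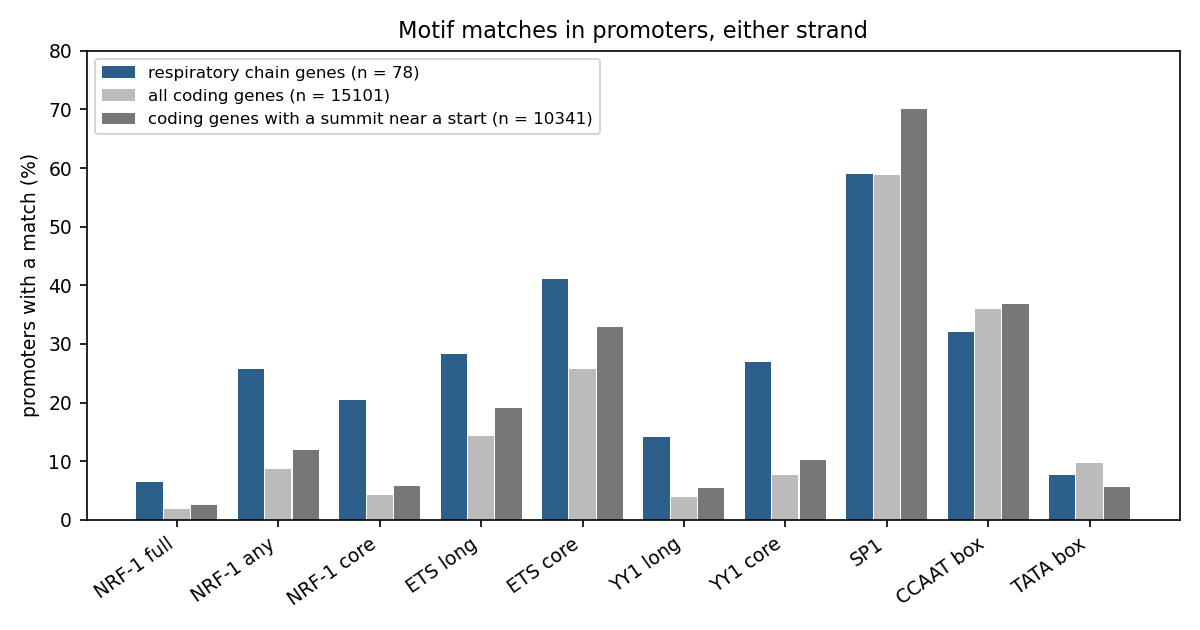
Percentage of promoters with a match to each motif on either strand (vertical axis) for 78 respiratory chain genes (blue), 15101 coding genes (light grey) and 10341 coding genes with a summit near a listed start (dark grey). The blue bars for NRF-1, YY1 and ETS motifs stand above both grey bars, while those for SP1 and the CCAAT box do not. For the NRF-1 core the shares are 20.5% against 4.19% and 5.73%. For the ETS motifs and the full NRF-1 palindrome, the dark grey share lies within the exact binomial interval of the blue one.

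A further 3 stretches are shown in the same form as above, to let the motifs be seen in place. SDHB is the member of highest enrichment with an NRF-1 core in the stretch, NDUFB4 (15.9) is one of the 5 genes with the full palindrome, and ATP5PO had the highest enrichment of all.
SDHB (chr1:17054033-17054232, minus strand): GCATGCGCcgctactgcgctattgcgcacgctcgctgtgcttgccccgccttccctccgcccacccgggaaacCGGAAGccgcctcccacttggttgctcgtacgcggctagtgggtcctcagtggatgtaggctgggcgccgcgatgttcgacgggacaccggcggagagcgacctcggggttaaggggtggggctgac
NDUFB4 (chr3:120596136-120596335, plus strand): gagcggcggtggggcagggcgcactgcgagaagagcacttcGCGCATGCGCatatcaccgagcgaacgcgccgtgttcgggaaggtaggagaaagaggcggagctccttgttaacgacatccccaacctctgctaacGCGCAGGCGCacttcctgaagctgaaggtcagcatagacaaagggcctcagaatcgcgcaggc
ATP5PO (chr21:33915805-33916004, minus strand): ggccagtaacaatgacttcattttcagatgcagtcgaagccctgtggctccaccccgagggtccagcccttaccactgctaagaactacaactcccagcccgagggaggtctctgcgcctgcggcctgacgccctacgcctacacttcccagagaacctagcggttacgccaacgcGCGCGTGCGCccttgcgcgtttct

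In NDUFB4 the longer NRF-1 form occurred at 159 to 150 and again at 63 to 54 bases before the start, with the summit 72 bp before the start. In SDHB the NRF-1 core lay 200 to 193 bases and the ETS core 127 to 122 bases before the start, on either side of the summit at 146. ATP5PO had the longer NRF-1 form 24 to 15 bases before its start, with the summit 58 bp before it.

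Most pseudogene copies of these genes had no summit. There were 195 autosomal pseudogenes named after 49 of the 96 genes, and 22 of them (11.3%) had a summit by the same rule, against 12.2% of all pseudogenes. At an enrichment of at least 10 there were 7 (3.59%), against 2.73%. Both shares were near the background of pseudogenes in general. COX6C has the most copies, 17.

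Of the 22, 3 had a summit at an end of a protein-coding gene, and the remaining 19 had a median enrichment of 3.70. Of these 19, 5 reached an enrichment of 10: ATP5MGP3, NDUFB4P4, NDUFB3P3 and a pair of SDHA copies on chromosome 3. SDHAP4 had 13.8 with a pileup of 849 and SDHAP1 12.9 with 1033, close to SDHA itself with 12.6 and 1676, whereas SDHAP2, also on chromosome 3, had 4.503 with 95. Reads from such near-identical copies may have been divided among them, so the values of SDHA and its copies are uncertain.

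The respiratory chain genes were next set beside other ubiquitous gene families. Of 75 cytosolic ribosomal protein genes, 74 (98.7%) had a summit near an end, and their medians were 12.6-fold and 1345 fragments. Of 77 mitochondrial ribosomal protein genes, 74 (96.1%) did, with medians of 13.1 and 811. The respiratory chain genes had a lower share by this rule, 86.5%, and medians of 13.3-fold and 878 fragments. Their median pileup was thus close to that of the mitochondrial and below that of the cytosolic ribosomal genes. The NRF-1 core was present in 5.08% of cytosolic and 8.70% of mitochondrial ribosomal promoters, against 20.5% here, whereas AAGATGGC was found in 11.9% and 29.0%, against 14.1% here. The ETS core was more frequent in both ribosomal families, at 61.0% of cytosolic and 53.6% of mitochondrial ribosomal promoters against 41.0% here, as was the longer ETS motif, at 33.9% and 42.0% against 28.2%. No test of these differences was made.

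Other genes of the pathway, on a list that holds no members, were described in the same way. All 45 had a summit near an end, whereas 66.6% of coding genes did, and their median enrichment was 14.2, beside 11.7 over coding genes with a summit. The summit of GABPA is that of ATP5PF and is counted in both lists. CYCS, for cytochrome c, had 18.6 with a pileup of 3355, and CYC1, for the cytochrome c1 of complex III, 13.5 with 1638. The 14 complex IV assembly genes had a median of 15.1, from 6.65 for SURF1 to 16.7 for SCO1. Among 13 regulators, TFB2M and TFAM, which act in mitochondrial transcription, had 16.8 and 16.4, NRF1 had 13.8 and GABPA 12.95. Under 10 were 5 of the 13: GABPB1, the partner subunit of GABPA, with 8.996, YY1 with 9.85, SP1 with 9.98, PPARGC1B with 9.33 and PPRC1 with 9.51. Over all coding genes, 7674 of the 12731 with a summit near an end reached 10, so values under 10 were common there too. The coactivator gene PPARGC1A had 10.7 near an end and 13 summits in the gene or its window. The lowest on the list was TMEM70, an ATP synthase assembly gene, with 1.87 and a pileup of 318.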

How the data were processed

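ATAC-seq was done on 12 HT1080 libraries, 4 at each of 3 collagen concentrations. The submitters' processing notes name fastp 0.20.0, Bowtie2 2.4.3, deepTools 3.5.0, SAMtools and MACS2 2.2.7.1 and the build hg38; their settings and the treatment of duplicates are not given in the sources used here. One narrowPeak list was analysed. Its deposited enrichment is a ratio (fold over local background), its deposited p-value and q-value columns are on the −log10 scale with a lowest −log10 q of 1.30, and its deposited score is a rescaled −log10 q. Planned comparisons between concentrations were not run, because no column names a library; library depth is unknown.

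Pileup and background were solved from (pileup + 1)/(background + 1) and a Poisson upper tail, a model tested on the values: 99.96% of lines gave whole pileups within 0.05. On simulated data 100% of 5000 pileups were recovered. Summits (start plus offset) were matched to RefSeq GRCh38.p14 gene ends within 1000 bp, and to starts listed for 78 of the 96 genes. RefSeq sequences overlapping another gene are not printed. Values of 1 gene are not reported here. Genes named are the isoform pairs, the highest and lowest of each complex, those without a summit, those at the edge of the window and the 5 strongest shared summits; any other gene named was chosen after its values were seen. The members and lists were chosen with earlier results of these data known. Python 3.11.15, pandas 2.3.3 and SciPy 1.17.1 were used, and no test was run, since genes are not replicates.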

Additional observations from a re-analysis of the deposited data

Results flagged for a closer look

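A signal outside the nuclear genes was present on the mitochondrial sequence, which encodes the remaining 13 protein subunits of the same complexes. The highest fragment pileup there was 93963, in COX1, and the lowest at any of its 18 summits was 77388, against at most 5322 at the nuclear genes. Of the 18 summits, 13 lay inside 9 of the 13 protein-coding genes, and enrichments ran from 1.21 to 2.30. The series has no library against which this level could be set, and its part in the values of the nuclear genes was not tested.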

How the results depend on the processing

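Of 66 values recomputed under alternatives, 50 kept their direction and stayed within tolerance, 14 moved and 2 reversed. The tolerance was 1.5 times for counts and ratios and the 95% binomial interval (exact) for shares, which is wide: TATAAA at 3.85% in place of 7.69% and the longer NRF-1 consensus at 16.7% in place of 25.6% were within it. The number of genes with a summit near an end was 75 to 91 of 96 under other windows, summits, intervals or, as added after seeing the data, the whole gene, 76 of 78 from listed starts and 70 of 80 for structural subunits, and moved only when shared summits were left out, to 49. The 80 leave out more than the assembly factors and readthrough genes. Complexes I to V hold 35, 4, 9, 16 and 18 subunit genes, of which 32, 4, 8, 10 and 16 had a summit. The further genes left out of the 80 thus had no summit near an end. The ratio of the median enrichment to that of all coding genes, 1.14, ranged from 1.12 to 1.27 and stayed above 1 in every alternative run. Tissue-restricted isoforms with a summit fell from 2 to 1 with windows of 250 or 500 bp and with a −log10 q of at least 10. Within the 100 bases before the start the shares, here against all coding genes, were 1.28% against 1.01% for the full NRF-1 palindrome, so that most of its difference was gone, and 7.69% against 2.38% for the NRF-1 core. They were 17.95% against 8.19% for the long and 25.6% against 13.8% for the core ETS motif. They were 1.28% against 0.497% for the long and 5.13% against 1.21% for the core YY1 motif, and 19.2% against 20.8% for the CCAAT box. On the gene's strand alone they were 14.1% against 8.16% for the long and 24.4% against 15.4% for the core ETS motif, and 19.2% against 20.9% for the CCAAT box. The SP1 motif reversed in both, with 35.9% against 43.2% and 24.4% against 40.75% of coding genes. No paired analysis was possible because the list holds no value per library, and leaving out a replicate was not possible for the same reason. Genes without a line were not called at the list's threshold, which does not show closed chromatin.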

Other observations

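Genes of the same complexes outside the symbol rule had the following values. COXFA4, formerly grouped with complex I as NDUFA4, reached 16.5-fold enrichment with 1321 fragments, while its paralogue COXFA4L2, known as a hypoxia-inducible gene, had 2.92 with a pileup of 303 near its end and 6.93 inside the gene. The X-linked NDUFA1 and NDUFB11, both accessory subunits of complex I, had enrichments of 13.3 and 11.8.

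Among the 78 genes with a listed start, 8 had a summit near the far end and over 1000 bp from any start, with enrichments of 1.46 to 13.5. The same count was not made over all coding genes, so whether 8 of 78 is many or few cannot be said. The strongest were at SDHAF2 (13.5, pileup 728) and NDUFA7 (11.5, pileup 844), and the other 6 were at UQCRC1, NDUFB6, NDUFB10, NDUFS7, NDUFA11 and COX6B1.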
